A study of Homo sapiens with 8 samples.

Results

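The response to HOXB7 siRNA that MIA PaCa-2 and Capan-1 pancreatic cancer cells had in common was read from 8 arrays, 4 of cells given the siRNA and 4 of parental cells. These are all 8 arrays of the series. For each probe the change was taken as the mean of both within-line differences, siRNA minus parental, so that each cell line counted equally. Probes entered the test only if in each line at least 1 of the groups had both its arrays well above background. MIA PaCa-2 is an established line from a primary pancreatic tumor and Capan-1 an established line from a hepatic metastasis of pancreatic ductal adenocarcinoma, and they were grown in different media. Per line, 2 arrays held RNA taken 48 hours after the cells had received a HOXB7-specific siRNA (10 nM), and another 2 held RNA of the parental line. No array of scrambled siRNA was among them, so HOXB7 silencing, the transfection reagent and the presence of a small RNA duplex cannot be told apart. The labels give no time for the parental arrays, so time in culture cannot be told apart from these either. The study plated cells for transfection in RPMI medium but grew Capan-1 in another. Whether the parental Capan-1 cells shared the medium of transfection is not stated. Of 17460 genes tested, 939 had a mean change past a limma adjusted p of 0.05 with the same sign in both lines. The threshold applied to the mean, so a called gene may have moved little in 1 line. The count depended on single arrays, as given below.

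HOX genes encode homeodomain transcription factors that set positional identity in the embryo and often remain active in carcinomas. They lie in clusters of neighbouring genes, and HOX proteins bind DNA together with PBX partners. An siRNA is loaded into an Argonaute protein and directs cleavage of the matching mRNA, and it can also lower other transcripts that match its seed. The duplexes of this kit are cut by DICER1 before loading. Double-stranded RNA in a cell can also start interferon and NF-kB signalling. Those genes were listed here beside the HOX family and the genes of cell cycle and apoptosis. All lists were chosen with earlier results of these data known. The labels do not name the duplex sequence, so no search for its seed was made.

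The arrays were alike in coverage, with 69.2% to 74.3% of spots well above background and none saturated. Before scaling the siRNA arrays were dimmer on average, siRNA minus parental being -0.21 (MIA PaCa-2) and -0.15 (Capan-1) in the log2 75th percentile. Most of the gap came from 1 brighter parental array in each line. In MIA PaCa-2 that percentile was 8.36 and 8.04 on the parental and 7.95 and 8.02 on the siRNA arrays. In Capan-1 that percentile was 8.05 and 8.28 against 7.98 and 8.05. All levels below are log2 intensity minus that percentile of the same array, and all changes are differences of these levels. The slides differed between the cell lines, and siRNA arrays sat at positions 1 and 2 with parental arrays at 3 and 4, so that position cannot be told apart from treatment. The labels do not say whether the 2 arrays of a group came from separate cultures, and the p-values then measure only the spread between these samples. On bulk RNA, fewer cells of a type and less RNA per cell cannot be told apart. Of 9 markers of pancreatic carcinoma epithelium, 6 were detected on all 8 arrays, while EPCAM, CDH1 and CEACAM6 were not well above background in MIA PaCa-2. MUC1, of the same list, was called lower, from a mean level of 1.00 to 0.08 in MIA PaCa-2 and from 3.53 to 3.32 in Capan-1. All 5 leukocyte markers matched to a probe were detected, and CD68 was called higher, from -0.21 to 0.49 in MIA PaCa-2 and from -0.14 to -0.10 in Capan-1. Their part in the results below was not tested. Among the markers of other cell types, 0 of 6 for fibroblast, 2 of 4 for endothelium, 1 of 4 for acinar cell and 2 of 3 for islet cell were detected on all 8 arrays, and none of these was called.

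HOXB7, the siRNA target, was lower in both lines. Its level in MIA PaCa-2 was -4.82 and -4.10 on the parental arrays and -7.77 and -7.78 on the siRNA arrays. In Capan-1 it was -2.48 and -2.34 on the parental arrays and -5.26 and -4.80 on the siRNA arrays. Every siRNA array thus lay below both parental arrays of its line. The siRNA arrays of MIA PaCa-2 were not well above background, where HOXB7 mRNA was at least 3.16-fold lower, the parental mean set against the lowest signal well above background. The mean change of both lines as fitted was -2.97 (SE 0.18, limma adjusted p = 0.00746), which includes those background values, and the exact permutation test of the treatment labels within each line gave a two-sided p of 0.0556, the smallest that 36 arrangements allow. A normexp background correction, which draws dim signals together, gave a mean change of -0.38.

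Across the genome 539 genes were lower (3.09% of the genes tested) and 400 were higher (2.29%) by the mean of both lines with the same sign in each. Among these, 512 lower genes (2.93%) and 371 higher genes (2.12%) also had no overlap of siRNA and parental arrays in either line. At any p, 2179 genes (12.5%) lay below parental without overlap in both lines and 2021 genes (11.6%) lay above. With both lines taken separately, 557 genes (3.19%) were lower and 470 genes (2.69%) were higher at an unadjusted p under 0.05 in each. Over all 21541 probes tested, 61.5% had the same sign in both lines and the median change was 0.0056. Of 1044 probes past the threshold, 55 had opposite signs and were not counted.

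The changes held in common were small. The median change of the lower probes was -0.43, made of -0.53 in MIA PaCa-2 cells and -0.34 in Capan-1. For the higher probes it was 0.45, made of 0.57 and 0.33. A mean change of at least 1 on the log2 scale was reached by 11 lower and 10 higher probes. Of 983 called probes, 743 moved further in MIA PaCa-2, 585 were also past the adjusted threshold in MIA PaCa-2 alone and 1 in Capan-1 alone. Many genes rested on a single probe: of 290 called genes with at least 2 tested probes, 208 had every tested probe in the same direction and 32 had every tested probe called. Long non-coding RNAs made up 2.48% of the lower probes with a known gene type, 5.07% of the higher ones (18 of 355) and 2.48% of all those tested.

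**Figure D1:**
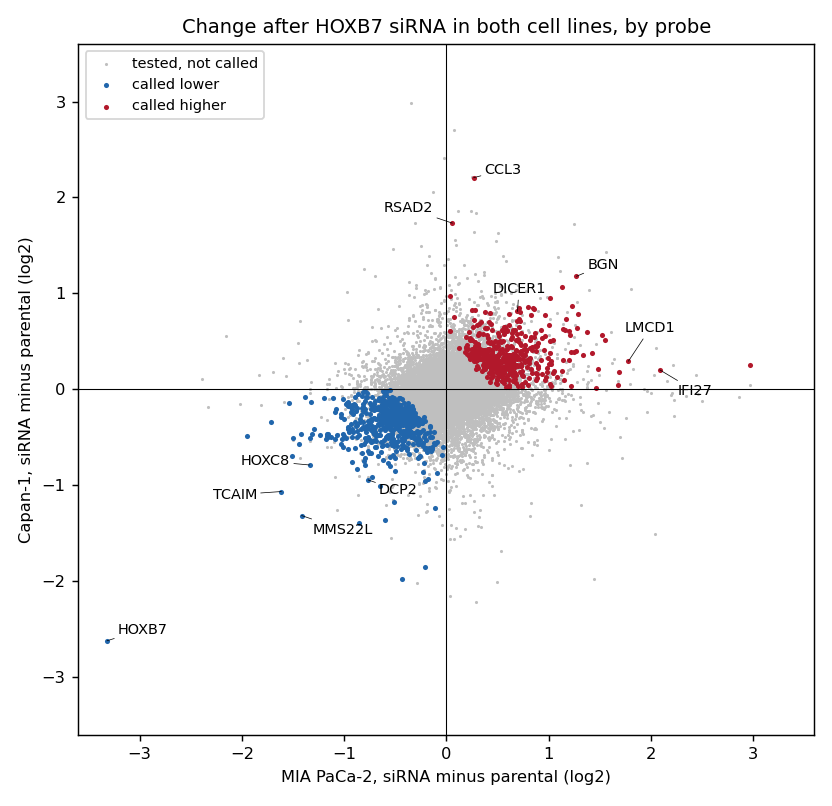
Change after HOXB7 siRNA by probe, with the difference siRNA minus parental (log2) in MIA PaCa-2 on the horizontal axis and in Capan-1 on the vertical axis. Each point is 1 of the 21541 probes tested (2 lie outside the axes), in blue where called lower and in red where called higher. HOXB7 lies at -3.32, measured against siRNA arrays not well above background, and -2.62, while the other called genes lie in a cloud whose spread is wider along the MIA PaCa-2 axis.

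These counts depended on single arrays. Leaving out replicate 2 of the Capan-1 parental cells left 0 genes past the limma threshold in either direction (against 1991 lower and 1866 higher probes at p under 0.05 before adjustment), and leaving out replicate 1 left 10 lower and 3 higher genes. Without siRNA replicate 1 or 2 of Capan-1 there were 81 and 135 lower genes and 93 and 135 higher genes. Without siRNA replicate 1 or 2 of MIA PaCa-2 there were 53 and 274 lower genes and 43 and 303 higher genes, and without its parental replicate 1 there were 168 and 149. Leaving out parental replicate 2 of MIA PaCa-2 raised the counts to 783 and 772. The balance of the directions depended on the scaling: 42.6% of the called genes were higher as reported, against 8.75% without any scaling and 6.82% when the spike-in probes set the scale, which moved the median change of all probes to -0.18 and -0.19. Directions below are relative to the 75th percentile of the array.

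**Figure D2:**
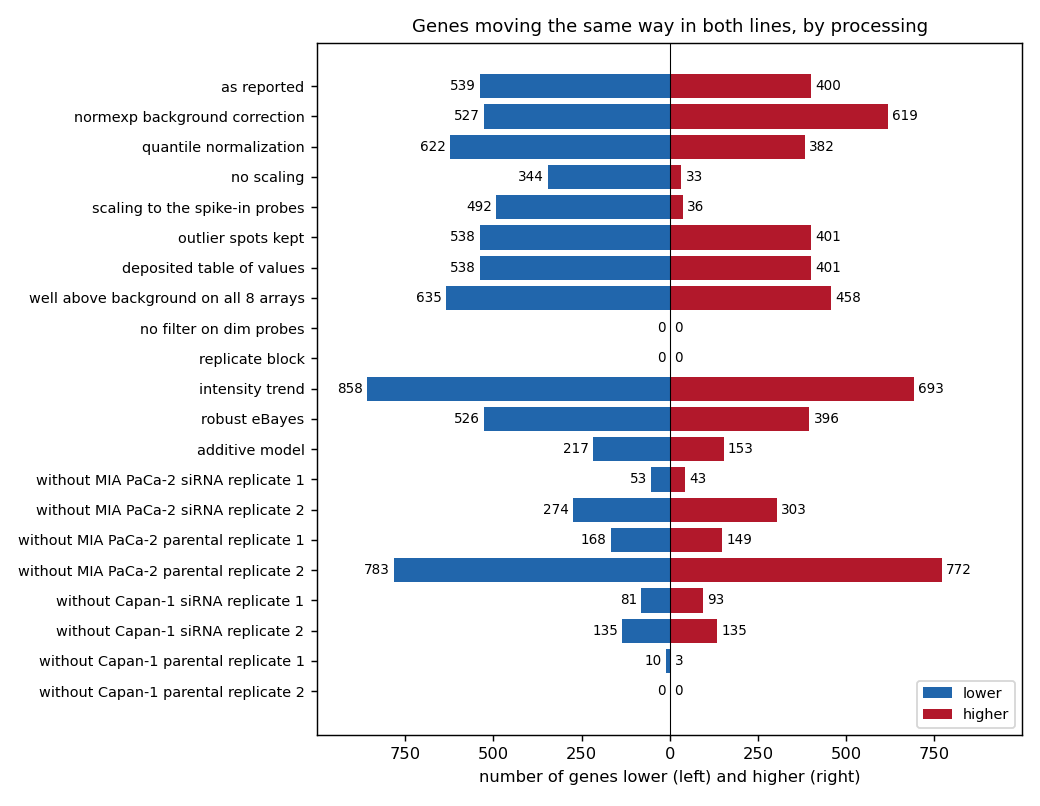
Number of genes past the limma threshold with the same sign in both lines, lower genes to the left in blue and higher genes to the right in red, for the processing reported here and for each alternative. The counts of 539 and 400 as reported fell to 0 and 0 without replicate 2 of the Capan-1 parental cells and rose to 783 and 772 without replicate 2 of the MIA PaCa-2 parental cells.

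Other HOX genes were among those that fell. Of 38 HOX genes on the array beside HOXB7, 20 were tested, 6 were called lower and 0 were called higher, where 3.09% of all genes were called lower. By the brightest probe 17 had a negative and 3 a positive mean change, with a median of -0.17 against 0.0059 over all genes. HOXC8, a gene of the HOXC cluster active at trunk level in the embryo (chr12:52692578-52692637, hg18), had parental levels of -1.44 and -1.24 and siRNA levels of -2.69 and -2.66 in MIA PaCa-2. In Capan-1 they were -2.78 and -2.68 on the parental arrays and -3.45 and -3.59 on the siRNA arrays. The siRNA arrays were below the parental arrays in each line, and the mean change was -1.06 (SE 0.072, limma adjusted p = 0.00914).

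The other lower members came from the HOXA, HOXB and HOXC clusters. HOXA13, a gene of the posterior end, changed by -0.62 in MIA PaCa-2 cells and -0.32 in Capan-1 (limma adjusted p = 0.0284). HOXB2 changed by -0.37 and -0.56 (limma adjusted p = 0.0233), but its brighter probe had a mean change of -0.16 that missed the threshold. HOXC4 changed by -0.29 and -0.46 (limma adjusted p = 0.0414), with a mean change of 0.0064 under the normexp correction. In HOXA2 and HOXB5 the arrays of 1 line overlapped. HOXA2, an anterior gene, had a change of -0.66 in MIA PaCa-2 cells and of -0.11 in Capan-1, where parental replicate 2 at -3.37 lay between the siRNA arrays at -3.31 and -3.40. HOXB5 had a change of -0.15 in MIA PaCa-2 cells and of -0.62 in Capan-1.

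Neighbours of HOXB7 were given by their values. HOXB6 had a mean change of -0.22 (limma adjusted p = 0.145) and HOXB9 of -0.18 (limma adjusted p = 0.162). HOXB8 had a mean change of -0.73 with a wide error (SE 0.21, limma adjusted p = 0.100), and its siRNA arrays in Capan-1 were not well above background. The 3 genes with a positive mean change were HOXA10 at 0.24, HOXD9 at 0.22 and HOXA9 at 0.07, none of them past the threshold, and HOXA9 was negative with no scaling or with the spike-in probes. Relative to the median of all genes, the median of the list stayed negative in 20 of 20 alternatives, from -0.22 to -0.16. Alternatives that changed only the scale of an array or the model of the fit could not move this value. The number of HOX genes called lower was between 0 and 5 with 1 array left out.

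**Figure D3:**
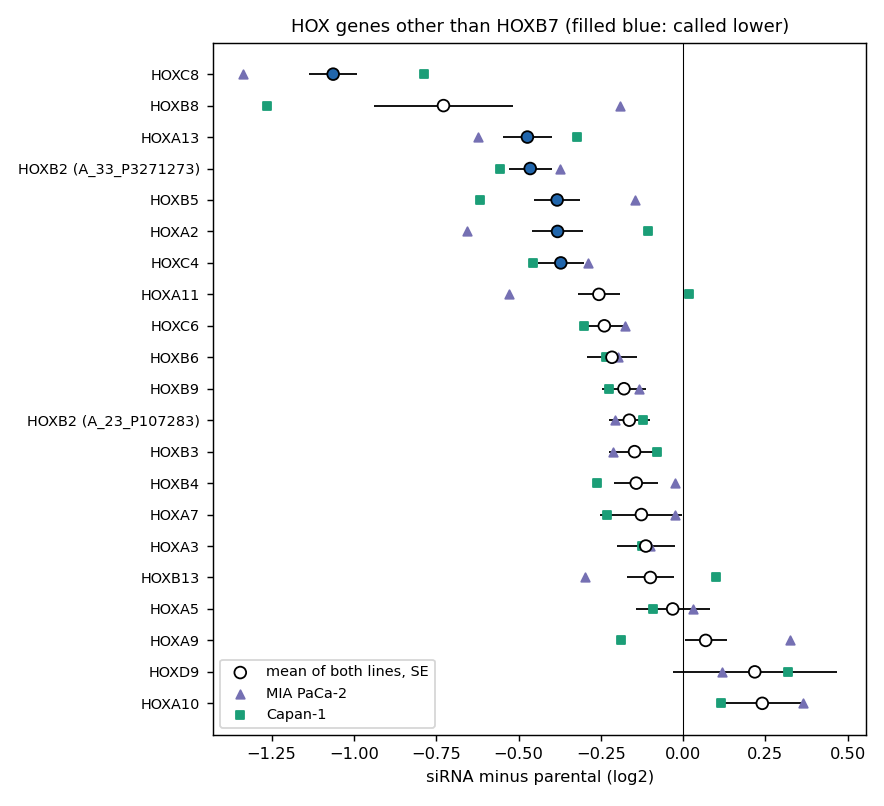
Change of the HOX genes other than HOXB7 that were tested, siRNA minus parental (log2), 1 row per probe. Circles are the mean of both lines with its standard error, filled in blue where called lower, triangles are MIA PaCa-2 and squares are Capan-1. HOXC8 at -1.06 is farthest to the left and HOXA10 at 0.24 farthest to the right, and all filled circles lie left of 0.

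To show what the listed factors could bind, the 250 bases before the gene start were read from RefSeq promoters (GRCh38.p14). Sequences were at hand for 11224 of the 17460 genes tested, 388 of 539 lower genes and 267 of 400 higher genes, which is under 80%, so no share of promoters with a motif was set between these groups. Of the 6 lower HOX genes 3 had a sequence, and HOXA2 (chr7:27102684-27102933, minus strand) is shown because it holds the HOX-PBX letters TGATNNAT, searched on both strands and found in 6.69% of 27305 promoters. The capitals mark the match, which starts 114 bases before the gene start and reads as the reverse complement.
HOXA2: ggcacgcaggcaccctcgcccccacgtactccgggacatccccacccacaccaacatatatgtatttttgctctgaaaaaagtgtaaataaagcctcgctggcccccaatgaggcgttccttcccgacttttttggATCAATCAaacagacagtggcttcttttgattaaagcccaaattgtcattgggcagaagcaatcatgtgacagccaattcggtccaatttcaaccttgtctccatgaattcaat

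Beside HOXB7, the largest falls by the brightest called probe, with all 8 arrays well above background and siRNA and parental arrays apart in both lines, were in MMS22L, TCAIM, HOXC8, ANKRD2, PTAR1, GFPT1, ST6GALNAC2, DCP2, LOC728392 and ACSL3, with mean changes from -1.37 to -0.84. MMS22L, which takes part in the repair of broken replication forks (probe at chr6:97696927-97696986, hg18), had parental levels of -1.09 and -1.12 in MIA PaCa-2 and siRNA levels of -2.42 and -2.63. In Capan-1 they were -1.998 and -2.05 against -3.23 and -3.45. The fall was of like size in both lines, with a mean change of -1.37 (SE 0.079, limma adjusted p = 0.00746). Its other probe had a mean change of -0.09 (limma adjusted p = 0.676), so the fall was seen by 1 of its 2 probes. That other probe was not the dimmer one, with parental levels of -1.29 and -0.87 in MIA PaCa-2 and of -1.67 and -1.69 in Capan-1.

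TCAIM, a mitochondrial protein, had parental levels of -0.44 and -0.40 in MIA PaCa-2 against siRNA levels of -1.98 and -2.09. In Capan-1 they were -2.65 and -2.66 against -3.82 and -3.62, and the mean change was -1.34 (SE 0.067, limma adjusted p = 0.00746). Here too the other probe stood apart, with a mean change of -0.05. The same held for PTAR1 and GFPT1, whose mean changes of -1.004 and -0.9999 came beside -0.22 and 0.11 for the other probe. GFPT1 is the rate-limiting enzyme of the hexosamine pathway, and the probe that did not fall is the brighter one.

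DCP2, the enzyme that removes the cap of mRNAs before decay, was the single one of these 10 that fell further in Capan-1. Its parental levels were -0.94 and -0.71 in MIA PaCa-2 cells and -1.58 and -1.52 in Capan-1, and its siRNA levels were -1.55 and -1.62, and -2.49 on both arrays. The mean change was -0.85 (SE 0.070, limma adjusted p = 0.0121). ACSL3, which activates long-chain fatty acids, had parental levels of 0.94 and 0.83 in MIA PaCa-2 cells and of -0.13 and -0.13 in Capan-1, against siRNA levels of -0.01 and -0.08, and of -0.76 and -0.9997. The mean change was -0.84 (SE 0.073, limma adjusted p = 0.0126). ST6GALNAC2, a sialyltransferase, and ANKRD2, an ankyrin-repeat protein of muscle, moved mostly in MIA PaCa-2, by -1.42 and -1.71, against -0.47 and -0.34 in Capan-1. LOC728392 changed by -1.18 and -0.52. With the normexp correction the mean changes of ANKRD2 and LOC728392 were -0.17 and -0.04 and no longer past the threshold. Over the alternatives with all 8 arrays the mean change lay between -1.565 and -0.65 for MMS22L and between -1.54 and -0.67 for TCAIM. It lay between -1.26 and -0.43 for HOXC8 and between -1.20 and -0.93 for PTAR1.

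**Figure D4:**
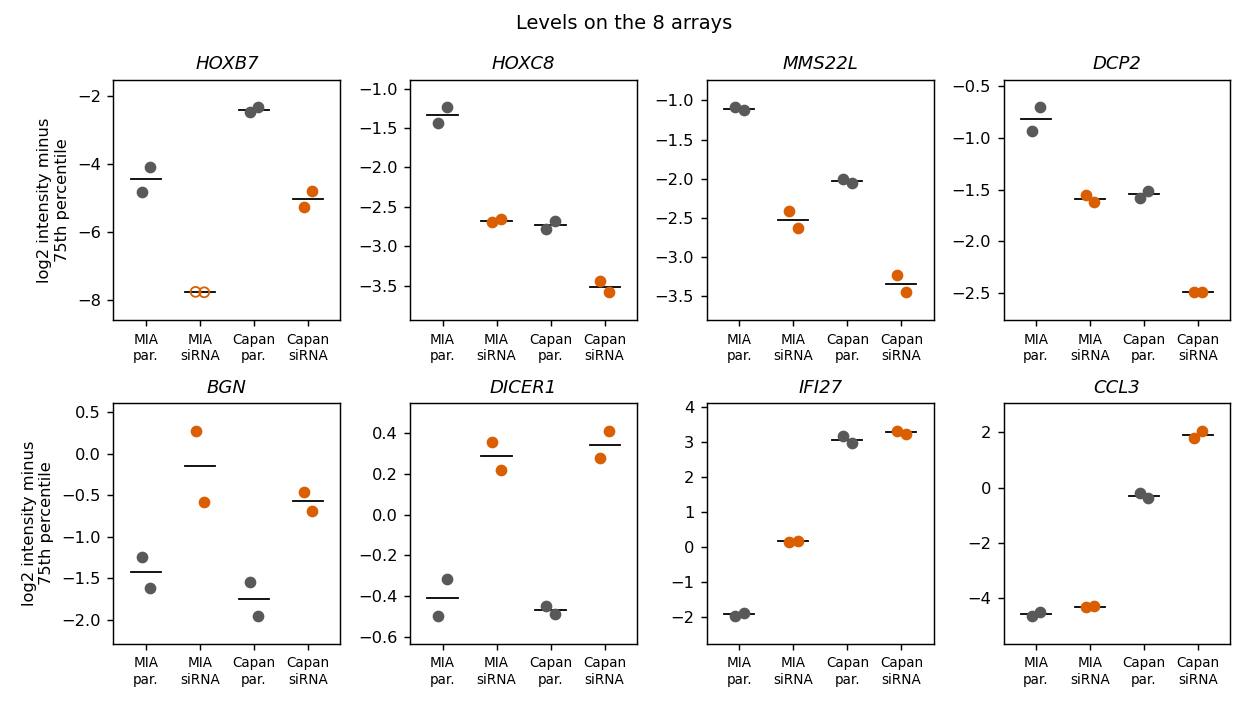
Levels of 8 genes on the 8 arrays, as log2 intensity minus the 75th percentile of the array, with parental arrays in grey and siRNA arrays in orange. Bars are the mean of the 2 arrays of a group, and open circles mark a group not well above background. In HOXB7, HOXC8, MMS22L and DCP2 the siRNA arrays lie below the parental arrays of the line and in BGN, DICER1, IFI27 and CCL3 above, with IFI27 moving mostly in MIA PaCa-2 (2.09 against 0.20) and CCL3 mostly in Capan-1 (2.21 against 0.27).

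By the same limits (brightest called probe, all 8 arrays well above background, no overlap in either line) the largest rises were in CCL3, BGN, IFI27, LMCD1, ZFAT-AS1, CH25H, HAS3, VESTAR, D21S2088E and EFS, with mean changes from 1.24 to 0.88. BGN encodes biglycan, a proteoglycan of the extracellular matrix (probe at chrX:152427127-152427186, hg18). Its parental levels were -1.24 and -1.61 in MIA PaCa-2 cells and -1.55 and -1.95 in Capan-1. Its siRNA levels were 0.27 and -0.58, and -0.46 and -0.69. BGN was thus higher to about the same extent in both lines, by 1.27 and 1.18, but with the widest error of the named rises (SE 0.21, limma adjusted p = 0.0329). With siRNA replicate 2 of MIA PaCa-2 left out BGN stayed past the threshold, and with any other array left out its adjusted p was above it, up to 0.124.

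Some rises were mostly those of 1 line. LMCD1, a LIM-domain cofactor of transcription, rose by 1.78 in MIA PaCa-2 cells and by 0.29 in Capan-1 (limma adjusted p = 0.0113 for the mean). D21S2088E rose by 1.42 and 0.38 (limma adjusted p = 0.0143). Others were closer between the lines. HAS3, a hyaluronan synthase, rose by 1.17 and 0.73 (limma adjusted p = 0.0230), although its other probe had a mean change of -0.14. EFS, an adaptor of the Cas family, rose by 1.14 and 0.63 (limma adjusted p = 0.0233). The non-coding RNAs ZFAT-AS1 and VESTAR rose by 1.29 and 0.79, and by 1.20 and 0.61.

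Interferon-stimulated genes are the antiviral effectors that cells switch on through the STAT and IRF factors. Of 48 tested, 5 rose (IFI27, CH25H, RSAD2, IFI6 and ISG20) and 0 fell, where 2.29% of all genes rose. The list as a whole was spread around 0, with 30 positive and 18 negative mean changes and a median of 0.09. IFI27, a mitochondrial interferon-stimulated protein, had parental levels of -1.98 and -1.88 and siRNA levels of 0.15 and 0.16 in MIA PaCa-2. In Capan-1, where it was already bright, they were 3.17 and 2.98 against 3.32 and 3.25. IFI6, of the same family, had parental levels of 0.27 and 0.35 and siRNA levels of 1.03 and 1.23 in MIA PaCa-2. In Capan-1 they were -1.40 and -1.29 against -0.95 and -0.71. IFI6 was higher on every siRNA array of its line, with a mean change of 0.67 (SE 0.083, limma adjusted p = 0.0184).

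CH25H, which makes 25-hydroxycholesterol, had parental levels of -3.28 and -3.41 in MIA PaCa-2 cells and of -5.27 and -5.31 in Capan-1. Its siRNA levels were -1.72 and -1.85, and -4.57 and -4.99, without overlap in either line (mean change 1.03, SE 0.10, limma adjusted p = 0.0130). RSAD2, or viperin, had levels in MIA PaCa-2 of -2.57 and -2.87 on the parental and of -2.52 and -2.80 on the siRNA arrays, which overlap. In Capan-1 they were -3.58 and -3.61 against -1.84 and -1.89, a change of 0.06 in MIA PaCa-2 beside 1.73 in Capan-1 (limma adjusted p = 0.0144 for the mean). ISG20, an exonuclease that degrades viral RNA, rose by 0.31 in MIA PaCa-2 cells and 0.68 in Capan-1 (limma adjusted p = 0.0186). IFIT1, IFIT2 and IFIT3 were past the threshold with opposite signs, -0.15, -0.12 and -0.07 in MIA PaCa-2 against 1.22, 1.05 and 0.81 in Capan-1, and were not counted. With 1 array left out between 0 and 5 genes of the list rose, 2 rose with no scaling and 1 when the spike-in probes set the scale.

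All of these 5 genes had a promoter sequence. The interferon-stimulated response element was read as GAAA, any 2 bases and GAAA on either strand, and 3 held it. Of 27305 promoters 3.07% held it, but the list was made of known interferon-stimulated genes, so this is no test of the siRNA response. Of the 48 listed genes tested, 38 (79.2%) had a sequence, below the limit given above. Whether the called genes held it more often than the rest of the list was thus not tested. RSAD2 was counted as lacking the element, although its promoter holds GAAACGAAA, with 1 base between. The 3 promoters with a match are shown because this element is where interferon-activated factors bind, and the capitals mark each match. IFI27 (chr14:94110486-94110735, plus strand) has matches starting 108 and 95 bases before the gene start, IFI6 (chr1:27672193-27672442, minus strand) has 3 matches and ISG20 (chr15:88638766-88639015, plus strand) has 1.
IFI27: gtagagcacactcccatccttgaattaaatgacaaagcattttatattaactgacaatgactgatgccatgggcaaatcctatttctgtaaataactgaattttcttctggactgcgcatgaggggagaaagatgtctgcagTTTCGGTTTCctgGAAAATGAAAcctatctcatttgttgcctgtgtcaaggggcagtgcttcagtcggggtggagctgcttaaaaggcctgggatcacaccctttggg
IFI6: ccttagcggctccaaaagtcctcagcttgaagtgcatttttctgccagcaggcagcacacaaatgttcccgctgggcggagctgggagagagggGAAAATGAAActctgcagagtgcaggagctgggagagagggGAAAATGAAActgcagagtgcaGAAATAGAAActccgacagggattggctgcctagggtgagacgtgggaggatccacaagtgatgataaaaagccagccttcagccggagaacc
ISG20: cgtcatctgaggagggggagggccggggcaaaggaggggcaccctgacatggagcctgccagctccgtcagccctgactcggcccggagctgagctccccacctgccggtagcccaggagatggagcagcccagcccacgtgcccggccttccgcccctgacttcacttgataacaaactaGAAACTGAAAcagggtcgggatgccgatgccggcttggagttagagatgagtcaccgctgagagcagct

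Of 27 NF-kB targets and chemokines tested, 4 rose and 2 fell, beside 2.29% and 3.09% of all genes, with 19 positive and 8 negative mean changes and a median of 0.14. CCL3, a chemokine for monocytes, had parental levels of -4.64 and -4.50 and siRNA levels of -4.31 and -4.29 in MIA PaCa-2. In Capan-1 they were -0.21 and -0.37 against 1.79 and 2.05. The mean change of 1.24 (SE 0.083, limma adjusted p = 0.00914) was thus mostly that of Capan-1. Its neighbour CCL4 (probe at chr17:31456831-31456890, hg18) rose by 0.28 in MIA PaCa-2 cells and 0.83 in Capan-1 (limma adjusted p = 0.0268). CXCL8, the neutrophil chemokine interleukin-8, rose further in MIA PaCa-2, from -2.44 and -2.23 to -1.48 and -1.65, than in Capan-1, from 1.62 and 1.61 to 1.94 and 1.87 (limma adjusted p = 0.0233 for the mean of 0.53). NFKBIE, an inhibitor of NF-kB, had a mean change of 0.30 (limma adjusted p = 0.0433). CCL3L3 was past the threshold with opposite signs, -0.02 and 1.30, and was not counted.

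The members that fell were TNFAIP2 and CXCL3. TNFAIP2, a TNF-induced gene, was bright in both lines, with parental levels of 4.82 and 4.66 in MIA PaCa-2 cells and of 6.79 and 6.77 in Capan-1. Its siRNA levels were 4.18 and 4.27, and 6.23 and 6.31. The falls of 0.52 and 0.51 were nearly equal (limma adjusted p = 0.0178). CXCL3 changed by -0.62 in MIA PaCa-2 cells and by -0.07 in Capan-1 (limma adjusted p = 0.0296). With no scaling or with the spike-in probes, 1 gene of the list rose and 1 fell.

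Of 14 genes of the small-RNA machinery 1 rose and 0 fell, a count too small to set against the 2.29% and 3.09% of all genes. It was DICER1, the nuclease that cuts double-stranded RNA into small RNAs (probe at chr14:94622368-94622427, hg18). Its parental levels were -0.50 and -0.32 in MIA PaCa-2 cells and -0.45 and -0.49 in Capan-1. With siRNA they were 0.36 and 0.22, and 0.28 and 0.41. DICER1 was higher by 0.70 and 0.81, with all siRNA arrays above all parental arrays (limma adjusted p = 0.0127). AGO2, the Argonaute that cleaves targets, had a mean change of 0.27 (limma adjusted p = 0.0577), and TNRC6A of 0.31 (limma adjusted p = 0.0580).

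Of 34 mitotic genes 4 fell and 0 rose, where 3.09% and 2.29% of all genes did, with 22 negative and 12 positive mean changes. BIRC5, or survivin, a member of the chromosomal passenger complex and an inhibitor of apoptosis, had parental levels of 5.11 and 5.14 in MIA PaCa-2 cells and of 4.65 and 4.59 in Capan-1. After siRNA it was at 4.45 and 4.34, and 4.29 and 4.33 (limma adjusted p = 0.0145 for the mean change of -0.52). HMMR, a spindle protein, changed by -0.53 and -0.47 (limma adjusted p = 0.0302). NUSAP1, which bundles spindle microtubules, changed by -0.34 and -0.36, and PRC1, which organises the central spindle, by -0.39 and -0.23. All 4 had no overlap of siRNA and parental arrays in either line, as had 512 of the 539 genes called lower. With 1 array left out between 0 and 4 mitotic genes fell, and with the normexp correction or an intensity trend 8.

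Of 22 cyclins, CDKs and CDK inhibitors 1 fell and 2 rose, where 3.09% and 2.29% of all genes did. CDK2, the kinase of the G1 to S transition, had parental levels of -1.51 and -1.42 in MIA PaCa-2 cells and of -2.05 and -1.82 in Capan-1. After siRNA they were -2.46 and -2.06, and -2.56 and -2.31 (mean change -0.65, SE 0.12, limma adjusted p = 0.0368). Its partner CCNE1, cyclin E1, rose, from 2.65 and 2.68 to 3.41 and 3.39 in MIA PaCa-2 and from 2.98 and 2.89 to 3.14 and 3.27 in Capan-1 (limma adjusted p = 0.0159). CDC25A, the phosphatase that activates CDK2, rose by 0.60 and 0.36 (limma adjusted p = 0.0263). Of 43 DNA replication genes 34 had a negative mean change, but GINS1, of the replicative helicase, was the single one past the threshold, at -0.38 and -0.48 (limma adjusted p = 0.0267). Of 13 RB and E2F genes 0 passed in either direction.

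RB1, which the study measured by PCR, and E2F1, of the E2F family of which it measured an unnamed member, lay lower on the siRNA arrays in both lines without passing the limma threshold. RB1, the retinoblastoma protein that holds E2F in check, had parental levels of 1.502 and 1.41 in MIA PaCa-2 cells and of 1.94 and 1.90 in Capan-1. Its siRNA levels were 1.26 and 1.10, and 1.70 and 1.74. The arrays did not overlap, and the mean change was -0.24 (SE 0.062, limma adjusted p = 0.0781). E2F1 had a mean change of -0.17 (SE 0.065, limma adjusted p = 0.168), also without overlap in either line. At any p, 12.5% of all genes lay below parental without overlap in both lines. CCND1, cyclin D1, had a change of 0.13 in MIA PaCa-2 cells and of -0.16 in Capan-1, a mean of -0.016 (SE 0.076, limma adjusted p = 0.915).

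Of 31 BCL2 family and caspase genes 1 fell, BIRC5, and 1 rose, near the 3.09% and 2.29% of all genes. PMAIP1, or NOXA, a pro-apoptotic BH3 protein, had a mean change of 0.41 (limma adjusted p = 0.0353), with arrays that overlapped in MIA PaCa-2 (0.07) and stood apart in Capan-1 (0.75). BCL2, the anti-apoptotic founder of the family, differed widely between replicates. In Capan-1 its siRNA levels were -1.84 and -5.28 against -4.99 and -5.16 on the parental arrays, so a single array made the mean change of 0.80 (SE 0.68, limma adjusted p = 0.491), which was -0.057 without it. BAX, a pore-forming pro-apoptotic protein, had a mean change of 0.11 (limma adjusted p = 0.350) by its brighter probe and of -0.10 by the other. BAD, a BH3 protein, had a mean change of -0.12 (limma adjusted p = 0.312). Of 25 p53 target genes 1 fell, DDB2 (-0.36, with -0.42 for its other probe), and 1 rose, TNFRSF10B, a TRAIL receptor (0.27), again near the 3.09% and 2.29% of all genes.

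Of 6 genes that the study's introduction names as induced by HOXB7, 3 were tested, and all 3 had positive mean changes. These were CXCL8, VEGFA at 0.32 (limma adjusted p = 0.103) and MMP9 at 0.31 (limma adjusted p = 0.0890), of which CXCL8 alone was past the threshold. FGF2 was not tested, since neither of its 2 probes was well above background in Capan-1. Its brighter probe in MIA PaCa-2 was at -2.41 and -2.43 on the parental arrays and at -4.40 and -4.75 on the siRNA arrays.

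Of 20 FGF receptors and MAPK feedback genes 2 rose and 1 fell, beside 2.29% and 3.09% of all genes. DUSP5, a phosphatase of ERK, rose from -2.98 and -2.68 to -1.58 and -1.58 in MIA PaCa-2 and from 1.63 and 1.58 to 1.92 and 2.08 in Capan-1 (limma adjusted p = 0.0143). FOS, an immediate early factor, rose by 0.38 and 0.33 (limma adjusted p = 0.0323). PHLDA1 fell by 0.34 in each line (limma adjusted p = 0.0385). Among 23 NRF2 targets and AKR1 reductases HMOX1, heme oxygenase, rose by 0.45 and 0.62 (limma adjusted p = 0.0145) and AKR1B1, aldose reductase, had a mean change of 0.29, while ABCC3, an efflux transporter, had a mean change of -0.39. The other ABCC3 probe had a mean change of -0.34 with opposite signs in the lines.

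The remaining lists are read against the same 3.09% lower and 2.29% higher. Of 29 genes of cholesterol and fatty acid synthesis 1 fell, INSIG1, which retains the sterol sensor in the endoplasmic reticulum, by 0.87 in MIA PaCa-2 cells and 0.50 in Capan-1 (limma adjusted p = 0.0298). Of 23 lysosomal genes 2 fell. LAMP2, a lysosomal membrane protein, had a mean change of -0.64 by its dim probe, but its brighter probes had 0.30 and 0.04, and GUSB, beta-glucuronidase, had -0.34 (limma adjusted p = 0.0408). By limma 0 genes were called in either direction among 31 proteasome subunits, 28 genes of the unfolded protein and integrated stress response, 26 glycolysis and hypoxia genes and 44 cytosolic ribosomal proteins. CHAC1, of the stress response list, was past the threshold with opposite signs (-0.79 in MIA PaCa-2 beside 0.11 in Capan-1). Of the ribosomal proteins 38 had a positive mean change, with a median of 0.07 against 0.0059 over all genes.

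**Figure D5:**
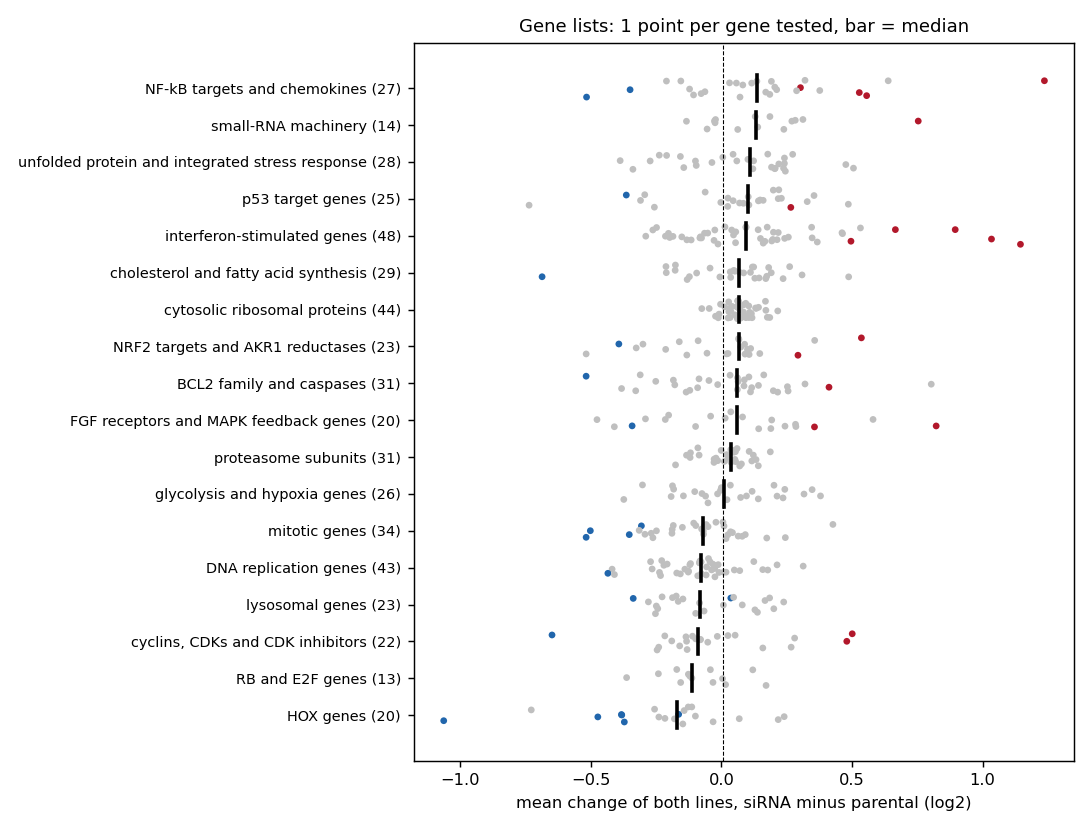
Mean change of both lines, siRNA minus parental (log2), for each gene tested in 18 lists, placed by its brightest probe, with genes called lower in blue and higher in red. Black bars are the median of a list, numbers are the genes tested and the dashed line is the median of all genes. Among the lists drawn the HOX genes have the lowest median (-0.17) and the NF-kB targets and chemokines the highest (0.14), and most genes of every list were not called (grey). The list of genes that the study names as induced by HOXB7 (3 tested, median 0.32) is not drawn. Colour follows any called probe of a gene, so LAMP2 is blue at 0.04 and HOXB2 at -0.16.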

How the data were processed

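RNA of MIA PaCa-2 and Capan-1 cells, 2 siRNA and 2 parental arrays each, was hybridised to one-color Agilent arrays. The authors deposited, for each array, spot intensities that Agilent Feature Extraction 9.5.3 (version per the submitters' processing notes) had corrected for background, together with its outlier and background calls. Their second deposited file gives the same intensities as log2 values, unscaled between arrays. Annotation in the files is on hg18. Here spots with an outlier flag were left out, spots of 1 probe were averaged on the log2 scale, and every array was set to its 75th percentile. A gene symbol was found for 26619 of 34127 probes, for 25065 through the accession and the rest by current or older symbols. Tests covered probes that in each line had a group with both arrays well above background. In R 4.3.3, limma 3.58.1 (lmFit, eBayes) fitted the 4 group means with 4 residual degrees of freedom, and the mean of both within-line contrasts was tested two-sided with Benjamini-Hochberg adjustment over all probes. A gene was called when at least 1 probe passed an adjusted p of 0.05 with the same sign in both lines and none passed in the other direction. With 2 arrays a group, the number of arrays limits the precision. Tables, promoters and figures were made with pandas 2.3.3, numpy 2.4.6 and matplotlib 3.10.9 (Python 3.11.15), and the fit was tested on simulated data.

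Named are HOXB7, the 10 largest falls and the 10 largest rises among called genes with a symbol, well above background on all 8 arrays and without overlap in either line, called members of 19 gene lists, up to 5 a list, and RB1, E2F1, CCND1, BCL2, BAX, BAD and FGF2. Also named, after their values were seen, are list members outside that rule (HOXC4, HOXB6, HOXB8, HOXB9, HOXA9, HOXA10, HOXD9, IFIT1, IFIT2, IFIT3, CCL3L3, CHAC1, NFKBIE, AGO2, TNRC6A, VEGFA and MMP9) and the markers MUC1 and CD68. The probe given is the brightest past the threshold, or the brightest where none passed. The members and the lists were chosen with earlier results of these data known. Alternatives were the background correction (normexp, offset 50), the scaling, outlier spots, the deposited table, the filter on dim probes, the replicate number as a block, the model of the spread, an additive model and each array left out.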

Additional observations from a re-analysis of the deposited data

Results flagged for a closer look

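IFI27 rose in both lines, but by 2.09 in MIA PaCa-2 and by 0.20 in Capan-1. The difference between the lines was 1.88 on the log2 scale and was itself past the threshold (limma interaction term, adjusted p = 0.0434), with both siRNA arrays above both parental arrays in each line. Among 983 called probes it was the single one past that threshold, but others came close. CCL3 changed by 0.27 in MIA PaCa-2 and by 2.21 in Capan-1 (limma interaction term, adjusted p = 0.0536). LMCD1 changed by 1.78 and 0.29 (limma interaction term, adjusted p = 0.0660).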

How the results depend on the processing

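The counts of 539 lower and 400 higher genes were within 1.5 times of these values with quantile normalization (622 and 382), outlier spots kept or the deposited table (538 and 401 each), probes well above background on all 8 arrays (635 and 458) and robust eBayes (526 and 396). They moved to 527 and 619 with normexp, to 344 and 33 with no scaling, to 492 and 36 with the spike-in probes, to 858 and 693 with an intensity trend and to 217 and 153 in an additive model. With no filter on dim probes limma gave 0 and 0 genes (against 2784 lower and 2508 higher probes at p under 0.05 before adjustment), where HOXB7 kept its mean change of -2.97 at an adjusted p of 0.0607. With 1 array left out the counts lay between 0 and 783 lower and between 0 and 772 higher genes, and a lone array was assumed to vary like the other groups. Over all probes tested, deviations of arrays with the same replicate number correlated by 0.026 in MIA PaCa-2 and by 0.035 in Capan-1. Whether replicate numbers pair the samples in a part of the genes was not tested. With the replicate block limma gave 0 lower and 0 higher genes (against 2347 and 2464 probes at p under 0.05 before adjustment), and HOXB7 was at -2.97 with an adjusted p of 0.0857. HOXB7 lay between -3.15 and -2.79 with 1 array left out, at -2.93 with an adjusted p of 0.0656 without replicate 2 of the Capan-1 parental cells. Of the named genes 6 changed sign: CCND1, between -0.083 and 0.052 with 1 array left out, was 0.0042 when siRNA replicate 1 and 0.052 when parental replicate 1 of MIA PaCa-2 was dropped, BCL2, between -0.057 and 1.66, was -0.057 without siRNA replicate 1 of Capan-1, BAX was -0.078 and HOXA9 -0.11 with no scaling, and they were -0.094 and -0.13 with the spike-in probes, HOXC4 was 0.0064 with normexp, and HOXD9, between -0.024 and 0.46 with 1 array left out, was -0.024 without parental replicate 1 of Capan-1. The cause of these moves was not tested. The other tested genes named kept their sign in every alternative that could be computed for them. The replicate block, the model of the spread, the additive model and the filter on dim probes do not alter the change of a probe. They could thus not alter a sign.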
